A study of Danio rerio with 12 samples.

Results

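The comparison described here asks how the effect of a PCSK7 and p53 morpholino pair on the zebrafish embryo at 24 h after fertilization differed from its effect at 6 h, gene by gene. Members were all probes that were not control spots and that the scanner software rated well above background on all 12 arrays, which held for 26468 of 43603 probes (60.7%). Of these, 18846 probes carried a gene name, for 10098 of the 14016 genes named on the array. Probes above background at only 1 of the times are not members, so genes that start or stop being measurable between the times are outside this account.

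The arrays were 1-colour Agilent arrays of whole wild-type AB embryos raised at 28.5 °C, with RNA from pools of 18 to 35 embryos. There were 4 groups of 3 arrays: embryos given a control morpholino and embryos given PCSK7 and p53 morpholinos, each collected at 6 h and at 24 h. Morpholinos were injected into the yolk at the 1-4 cell stage at 0.25 to 1.0 pmol each, and no group received either of the PCSK7 and p53 morpholinos alone, which is why every effect below belongs to the pair. The labels do not tell whether the pools of a group were from different clutches or injections, and the spread that the p-values rest on may therefore be technical. All morpholino arrays at 6 h lay on 1 slide and all at 24 h on another. Each of the 3 control slides held both times. The morpholino is therefore confounded with slide, with scan session and with the version of the scanner software, and these cannot be told apart. A shift between sessions that is equal at both times cancels in the difference between the effects but does not cancel in the effects themselves, and the slides of the morpholino arrays cannot be told apart from their time.

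A morpholino is an antisense oligonucleotide that binds an RNA and blocks its translation or splicing, and it is diluted as the embryo grows. PCSK7 is a proprotein convertase, an enzyme of the secretory pathway that cleaves precursors of other proteins, and the p53 morpholino is widely used to limit cell death after injection. At 6 h the zebrafish embryo has begun gastrulation and its germ layers are being laid down, whereas at 24 h the somites, brain, eye and blood have formed. In whole embryos, fewer cells of a type and less RNA per cell cannot be told apart.

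Array signal differed between groups before scaling: the 75th percentile of the processed signal was 401.1 to 508.6 intensity units in controls at 6 h, 630.4 to 725.8 with the PCSK7 and p53 morpholinos at 6 h, 692.1 to 984.1 in controls at 24 h and 1013.8 to 1079.9 with the morpholinos at 24 h. Replicates correlated with r of 0.9955 to 0.9981 over the member probes. Of 34 defining cell type markers named on the array, 21 were above background on all 3 arrays of controls at 6 h, 26 with the morpholinos at 6 h and 32 in each group at 24 h. No probe was named for pcsk7 (0 probes), so the target of the first morpholino is not analysed here. tgfb1a, the ligand named in the study's title, was above background on 1 of 3 morpholino arrays at 6 h and is therefore not a member.

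Levels are on a log2 scale on which 0 is the 75th percentile of the array's processed signal, and levels of different genes are not compared. The effect at a time is the mean of the 3 morpholino arrays minus the mean of the 3 control arrays of that time. The difference is the effect at 24 h minus the effect at 6 h, with its standard error (SE) and adjusted p from limma over all 12 arrays, and a gene is called when the adjusted p is under 0.05. A gene stands for its member probe with the highest mean signal.

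The effects at the 2 times differed for about as many probes as not. The difference was called for 13189 of 26468 member probes (49.8%) and for 5345 of 10098 genes (52.9%), of which 2284 were higher at 24 h (22.6%) and 3061 lower (30.3%). It was at least 2-fold for 1124 genes (11.1%), 412 with a higher (4.08%) and 712 with a lower effect at 24 h (7.05%). This split depended on the scaling, with 477 higher and 629 lower after quantile normalization and 444 and 519 in the authors' deposited table, where the scanner signal of the same 9496 genes gave 384 and 682. Over all called differences the deposited table gave 2751 higher and 2756 lower. In 862 of the 1124 genes (76.7%) the effect was larger in size at 6 h. The median size of an effect was 0.36 at 6 h and 0.26 at 24 h on the log2 scale, with median standard errors of 0.09. At 6 h 1048 genes were called with at least 2-fold (10.4%), at 24 h 418 genes (4.14%). Both times were called with at least 2-fold for 160 genes, which is 15.3% of the 6 h genes and 38.3% of the 24 h genes. Of these 160, 149 had the same direction and 11 the opposite. Across the 10098 genes the effects at both times correlated with Pearson's r of 0.29 and Spearman's rho of 0.27. Genes are not independent replicates, and the times share slides in the controls. The scatter of both effects shows these genes spread along the horizontal axis more than along the vertical one.

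**Figure D1:**
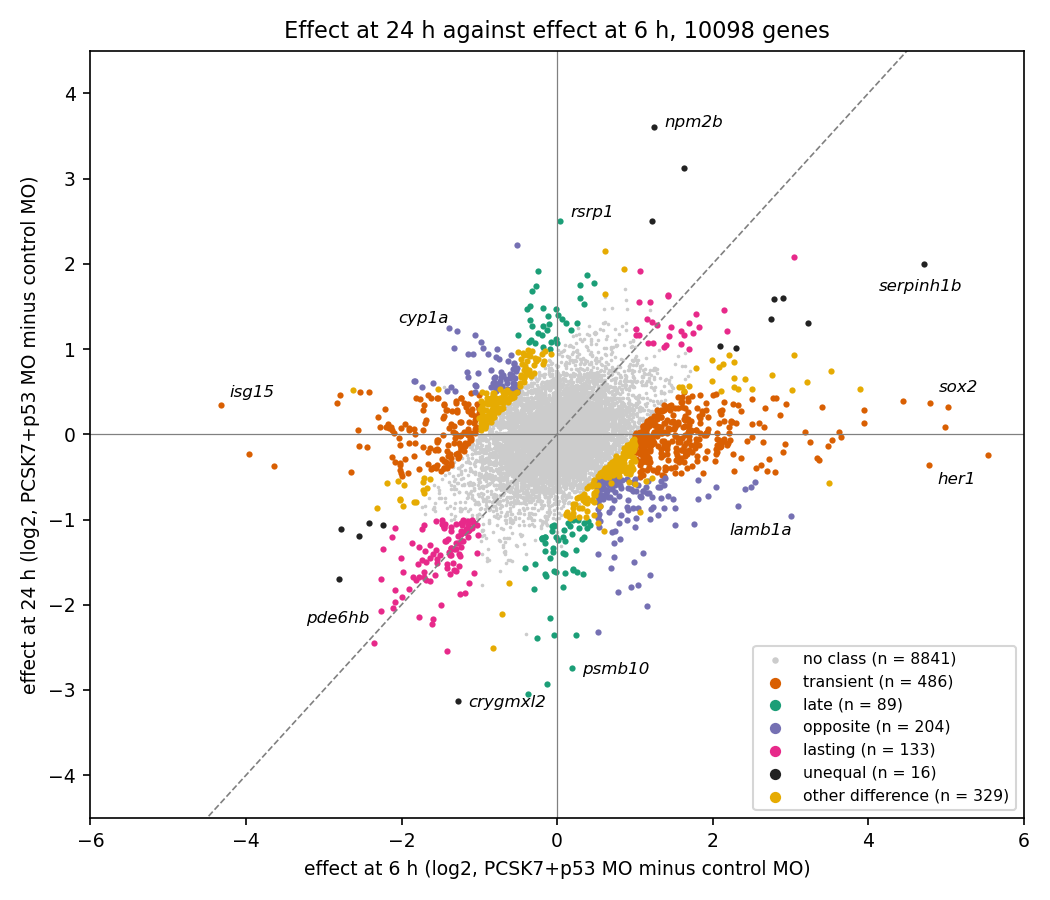
Effect of the PCSK7 and p53 morpholinos at 24 h (vertical) against 6 h (horizontal), log2, morpholino minus control, 1 point per gene for 10098 genes, with colours for the classes defined in the text. Points on the dashed line have equal effects; the 486 transient genes lie near the horizontal axis and the 89 late genes near the vertical axis.

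Genes were sorted into classes by fixed limits. A transient gene was called with at least 2-fold at 6 h, had a called difference of at least 2-fold and an effect under 0.5 (log2) in size at 24 h, and a late gene was the mirror image. The effect under 0.5 could itself be called, in either direction. A lasting gene was called with at least 2-fold at both times in the same direction without a called difference of 2-fold, and an unequal gene was the same with one. An opposite gene was called at both times in opposite directions, with both effects at least 0.5 in size and a called difference of at least 2-fold. There were 486 transient genes, 332 of them higher at 6 h and 154 lower, against 89 late genes, 35 higher at 24 h and 54 lower. Opposite genes numbered 204, of which 137 were higher at 6 h and lower at 24 h and 67 the reverse. The 133 lasting genes were mostly lower (105), with 28 higher, and 16 genes were unequal. The lasting class depended on the probe chosen: with the mean of a gene's member probes 89 genes were lasting, and 83 of the 133 stayed in the class. Of lasting genes with 2 or more member probes, the probes agreed for 27 of 52 lower genes and 9 of 10 higher genes. Without the genes whose probes disagreed, 80 lasting genes were lower and 27 higher. Another 329 genes had a called difference of at least 2-fold but met none of these definitions. Of all genes 4.81% were transient, 0.881% late, 2.02% opposite and 1.32% lasting. Counts in the lists below are to be read against these shares, and against the 30.3% called lower and 22.6% called higher. With a background correction that lifts dim signals (normexp), the counts were lower, with 229 transient, 45 late, 88 opposite and 86 lasting genes. The median effects of the transient genes were 1.51 at 6 h and -0.03 at 24 h for those higher and -1.44 and 0.01 for those lower, and of the late genes -0.12 and 1.31, and 0.00 and -1.30. The 95% interval of the 24 h effect lay within 2-fold for 329 of the 332 transient genes that were higher and 150 of the 154 that were lower, and the interval of the 6 h effect for 35 of 35 and 53 of 54 late genes. These medians and intervals follow largely from the limits that defined the classes and are no separate evidence for them. Near the limit, gadd45aa and ms4a17a.9 lay just inside the transient class with effects at 24 h of 0.50 and 0.50. tbxta, phlda3 and eve1 lay just outside with 0.51, 0.52 and 0.53.

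**Figure D2:**
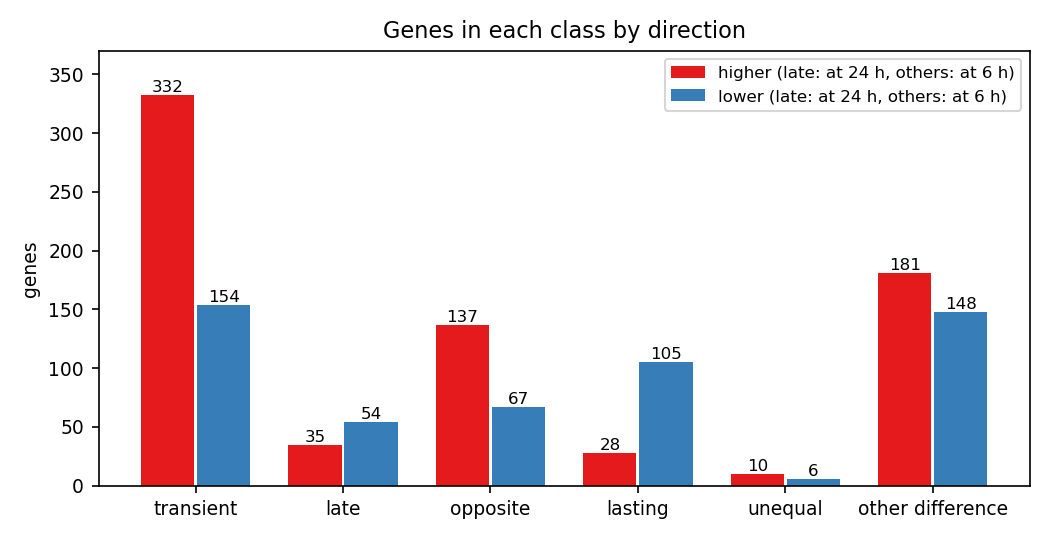
Number of genes in each class, with red bars for genes higher and blue bars for genes lower with the morpholinos, at 24 h for the late class and at 6 h for the others. Transient genes were more often higher (332) than lower (154), and lasting genes more often lower (105) than higher (28).

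Among genes with a plain symbol that were transiently higher, the largest differences were in her1, aldh1a2, kctd12b, sox2 and mespaa, all of them several-fold higher at 6 h and near the control level at 24 h. her1 and her7 are the cyclic hairy-related repressors of the segmentation clock, the oscillator that times somite formation, and mespaa is a transcription factor of the presomitic mesoderm. The level of her1 at 6 h was -4.55, -4.19 and -5.55 in controls and 0.09, -0.27 and 0.22 with the morpholinos, and at 24 h -1.48, -1.44 and -1.25 in controls and -1.44, -1.79 and -2.02 with the morpholinos. The groups stood far apart at 6 h and overlapped at 24 h. her1 was 27.4-fold higher with the morpholinos at 6 h, its effect at 24 h was -0.36 (SE 0.30, adjusted p = 0.358), and the difference was -5.13 (SE 0.42, adjusted p = 1.52e-05). In RefSeq's zebrafish annotation (GRCz12tu) her7 is the next gene to her1, and its 2 probes gave differences of -3.66 and -3.63. kctd12b had -5.04, -5.16 and -4.96 in controls and -0.41, 0.19 and 0.15 with the morpholinos at 6 h, and a difference of -4.71 (SE 0.22). For mespaa the levels at 6 h were -4.55, -4.58 and -4.69 in controls and -0.25, 0.05 and -0.28 with the morpholinos, and at 24 h -2.40, -2.38 and -2.22 and -1.81, -1.85 and -2.17. It was higher with the morpholinos on every array at both times, but the effect fell from 4.45 to 0.39 (difference SE 0.17, adjusted p = 7.66e-07).

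Of the 23 measured genes of the segmentation clock and presomitic mesoderm, the difference was called lower for 14 and higher for 4, and 9 were transient. Among all genes 30.3% were called lower, 22.6% higher, and 4.81% were transient. The T-box gene tbx16l had effects of 3.95 at 6 h and 0.28 at 24 h, and msgn1, which drives presomitic mesoderm identity, 2.67 and 0.31. Members that moved the other way were lfng, a glycosyltransferase that modifies Notch receptors, with -1.01 at 6 h and -0.02 at 24 h, and the hairy-related repressor her11 with -0.97 and 0.33. Both had called differences (0.99, adjusted p = 0.000129, and 1.30, adjusted p = 0.000354). Among 30 Nodal and mesendoderm genes 14 were called lower and 1 higher. tbxta, the Brachyury gene of the notochord and tail, had an effect of 2.11 at 6 h and 0.51 at 24 h (difference -1.60, adjusted p = 0.000221). The median difference of this list, -0.33, lay between -0.32 and -0.22 under the other scalings, against -0.05 over all genes.

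In the list of neural progenitors and Notch signalling, 18 of 36 measured genes were called lower and 9 higher, against 30.3% and 22.6% of all genes, and 9 were transient. sox2, a transcription factor that keeps neural progenitors undifferentiated, was at -4.19, -4.93 and -5.47 in controls and -0.27, 0.11 and -0.03 with the morpholinos at 6 h, and at 2.66, 2.58 and 2.47 and 2.92, 2.96 and 2.96 at 24 h. The morpholino arrays at 6 h thus lay between the control arrays of the 2 times. sox2 was 27.9-fold higher at 6 h and the difference was -4.43 (SE 0.35, adjusted p = 1.31e-05). The Notch ligand dlb had effects of 3.41 and 0.32, and the hairy-related repressor her3 2.94 and 0.36. Levels of these genes at 6 h in controls were dim: with normexp the difference was -2.97 for her1 and -2.27 for sox2, each smaller than without it and still called.

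**Figure D3:**
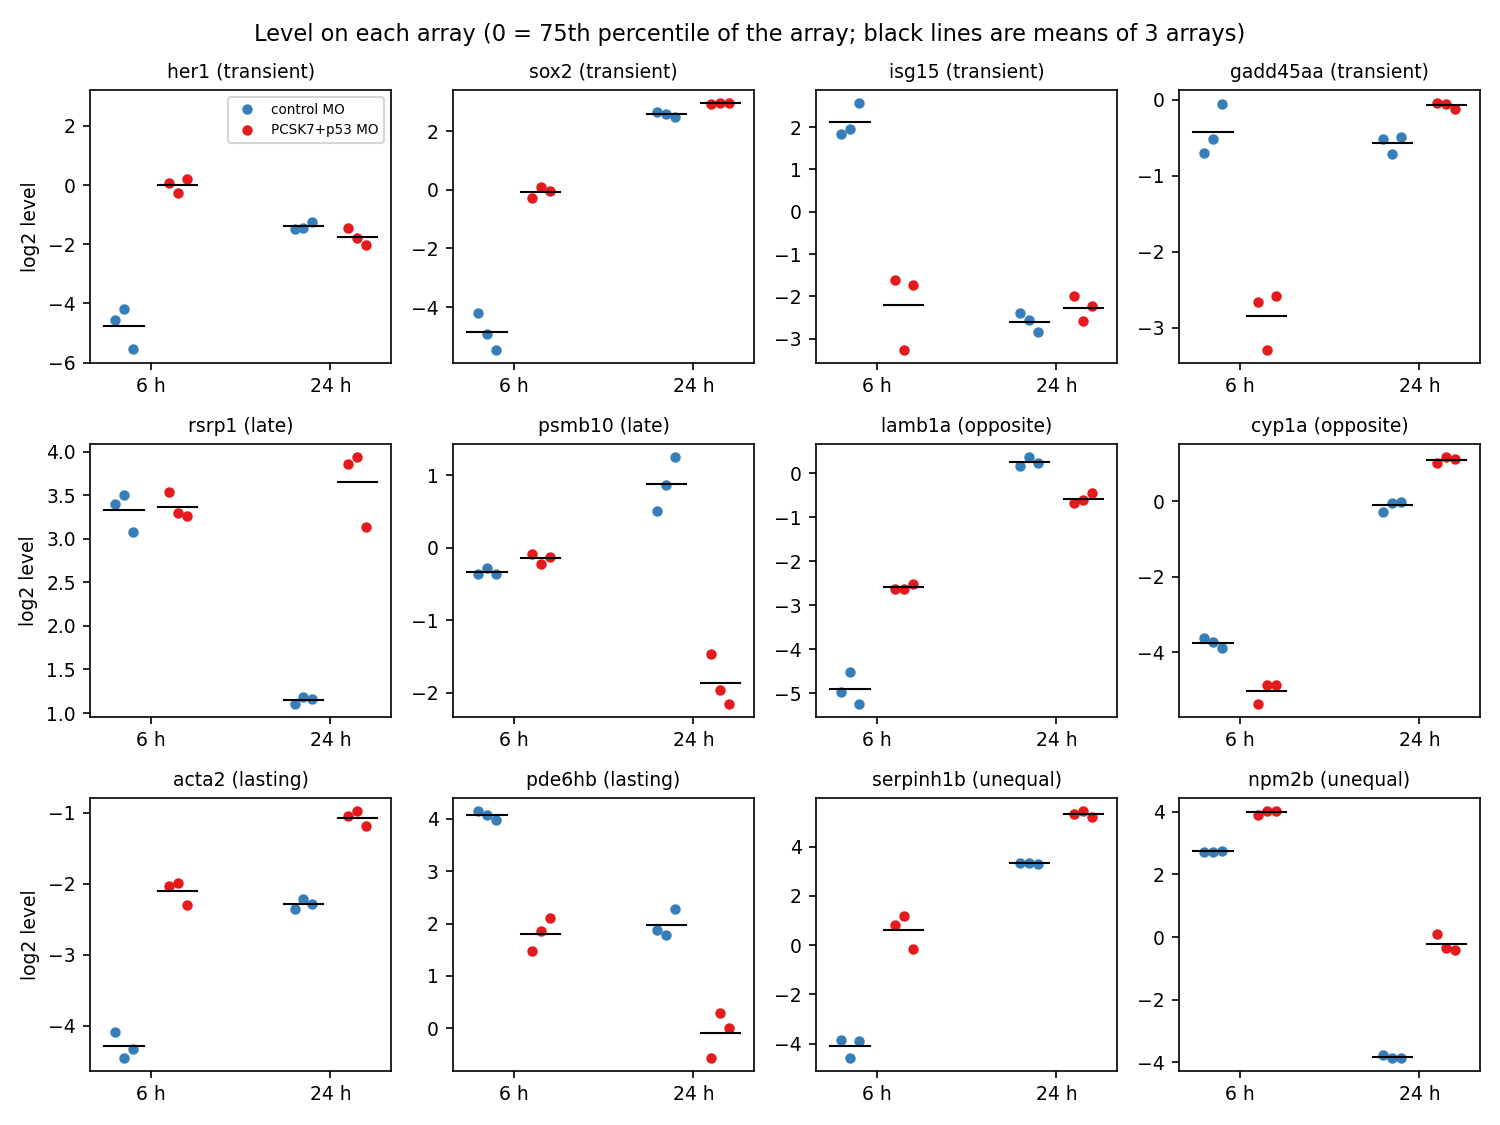
Level on each array (log2, 0 is the array's 75th percentile) of 12 genes, 2 or more from each class, with blue points for control and red for PCSK7 and p53 morpholinos, and black lines for the means of 3 arrays. The groups are further apart at 6 h for her1, sox2, isg15 and gadd45aa, and at 24 h for rsrp1 and psmb10. lamb1a and cyp1a change sides, and acta2, pde6hb, serpinh1b and npm2b are apart at both times on the same side. sox2, gadd45aa and psmb10 do not overlap at the other time either, and gadd45aa changes sides too.

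The control levels of these genes themselves changed between the times, by 3.37 for her1 and 7.44 for sox2. Over the 332 transient genes that were higher at 6 h, the median change of the control level from 6 h to 24 h was 3.27, but it uses the control arrays that also chose these genes and supports nothing about them. Whether the groups of 6 h differed in developmental stage was not tested. In the annotation, 30 of the 332 genes lie next to another gene of the same class and direction, among them icn and icn2, anxa1c and anxa1d, cyp2aa8 and cyp2aa9, and a run of keratin genes from krt91 through krt17, cyt1 and cyt1l to krt92. Such neighbours can be similar copies whose probes may read both.

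Signalling pathways each held genes of both directions. In the retinoic acid pathway, which patterns the trunk and hindbrain, the synthesis genes aldh1a2 and rdh10a were transiently higher. aldh1a2, which makes retinoic acid, was at -4.06, -4.76 and -5.13 in controls and 0.29, 0.50 and 0.24 with the morpholinos at 6 h, and at 2.38, 2.43 and 2.39 and 2.48, 2.41 and 2.60 at 24 h. The groups did not overlap at 6 h and overlapped at 24 h, and the difference was -4.90 (SE 0.30, adjusted p = 3.13e-06), while its other probe gave -2.38. rdh10a, which supplies its substrate, had effects of 1.84 and 0.13, and the receptor raraa 1.12 and -0.07. The breakdown enzymes cyp26c1 and cyp26b1 had called differences in the other direction, 1.72 and 0.95. Their effects went from -1.43 to 0.29 and from -1.48 to -0.53. Other members of the list are not described, so no split of synthesis from breakdown is shown for the whole list. Of 17 genes in this list 6 were called lower and 4 higher, near the 30.3% and 22.6% of all genes. In the same list 7 were transient, against 4.81% of all genes.

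In the BMP and dorsoventral list of 32 genes 10 were called higher, 10 lower and 9 were transient. The shares of all genes were 22.6%, 30.3% and 4.81%. The ligand gene bmp4 was higher at 6 h by 1.68 and had an effect of 0.18 at 24 h, and the ventral and posterior homeobox gene eve1 had 3.89 and 0.53. msx1a and msx1b, homeobox genes of dorsal neural tube and fin fold, had effects of 1.90 and 1.83 at 6 h against -0.28 and -0.12 at 24 h. Early ectoderm factors ran the other way: dlx3b was lower by 1.90 at 6 h with an effect of 0.05 at 24 h, and foxi1 lower by 1.84 with 0.06. The controls of foxi1 at 6 h were at 0.17, 0.43 and 0.74 and the morpholino arrays at -1.19, -1.65 and -1.32, which do not overlap, while at 24 h -0.89, -0.77 and -0.74 and -0.60, -0.77 and -0.86 do.

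In the Wnt list of 30 genes, 13 were called lower and 4 higher, against 30.3% and 22.6% of all genes. The median of this list was -0.37 (-0.35 to -0.11 under the other scalings). The largest differences belonged to sp5l, a zinc finger factor downstream of Wnt signals, with effects of 3.54 and -0.07 and 4 probes between -3.75 and -3.38, and to the receptor fzd10 with 2.21 and 0.01. sp5a, the other sp5 gene measured, was opposite, higher by 1.30 at 6 h and lower by 0.62 at 24 h. Hedgehog genes were called lower for 8 of 15 and higher for 2. The secreted factor scube2 and the ligand-binding hhip were transient (1.16 and -0.42, 1.16 and -0.27). Their falls at 24 h were called (adjusted p = 0.000386 and 0.0189), and the other probe of hhip gave a difference of -0.64 against -1.43. The transcription factor gli3 was late, with 0.20 at 6 h and -1.01 at 24 h. Of 24 FGF genes 5 were called lower and 3 higher. The ligand fgf24 was transient (1.49 and 0.23), and the ligand fgf17 and the feedback inhibitor spry1 had differences of 0.79 and -0.91.

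Of 33 genes of the TGF-beta pathway on the array, which the study's title concerns, 21 were members. Differences were called in 12 of the 21, 6 higher and 6 lower, none of them 2-fold (0 genes). Over all genes 52.9% had a called difference and 11.1% one of at least 2-fold. tgfb1a is not among the 21, since the filter removed it for its low signal with the morpholinos at 6 h. Its probes gave differences of 2.38 and 3.68 (adjusted p = 0.00181 and 1.32e-05), on signals not all above background. ccn2a and fn1a, matrix genes that TGF-beta is known to induce, had effects of -0.46 and -0.39 at 6 h and 0.52 and 0.48 at 24 h, with differences of 0.98 (adjusted p = 0.000358) and 0.87 (adjusted p = 0.00376). acta2, the smooth muscle actin gene, was lasting: its levels were -4.09, -4.46 and -4.33 and -2.03, -1.99 and -2.30 at 6 h, and -2.35, -2.22 and -2.28 and -1.04, -0.97 and -1.19 at 24 h. The morpholino arrays were higher at both times without overlap, by 2.19 and 1.21, and the difference was -0.98 (adjusted p = 0.000803), but 0.11 with normexp. Of 5 other proprotein convertase genes 1 had a called difference: pcsk5b had effects of -0.74 and -0.16 and a difference of 0.59 (adjusted p = 0.00696). The 3 probes of pcsk5b gave differences from 0.13 to 0.59. furinb was lasting, lower by 1.70 at 6 h and 1.37 at 24 h, and its difference did not pass (0.33, adjusted p = 0.115), nor did that of furina (-0.22, adjusted p = 0.125). For furinb it passed after quantile normalization (0.59, adjusted p = 0.0113), with cyclic loess (0.44, adjusted p = 0.041), in the deposited table (0.52, adjusted p = 0.0115) and without replicate 1 of the morpholino arrays at 24 h (0.44, adjusted p = 0.0355).

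Hox genes, which give segments their identity along the body axis, were lower at 6 h in 8 of 13 genes and higher in 1 (all genes, 31.0% lower and 34.6% higher). At 24 h 1 was lower and none higher (0 genes), against 28.6% and 22.9% of all genes. The difference was called higher for 5 and lower for 2, against 22.6% and 30.3% of all genes. Its median was 0.53 and lay between 0.52 and 0.70 under the other scalings. hoxb8a was at -0.87, -0.97 and -1.13 in controls and -3.60, -3.00 and -2.72 with the morpholinos at 6 h, and at 0.82, 0.55 and 0.70 and 0.61, 0.84 and 0.79 at 24 h, so the groups separated only at the first time. The adjacent genes hoxd12a and hoxd13a had differences of 1.14 and 1.19 (adjusted p = 0.00505 and 0.00304).

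Epidermal genes gave the lowest median difference of the 45 lists. The enveloping layer is the outermost epithelium of the early embryo, and its keratins, annexins and ictacalcins are among its most abundant transcripts. Of 41 measured genes of the epidermis and enveloping layer, the difference was called lower for 31 and higher for 4. Among all genes 30.3% were called lower and 22.6% higher. The median effect was 0.63 at 6 h and -0.41 at 24 h, and the median difference, -0.92, lay between -0.91 and -0.79 under the other scalings. At 6 h 27 were higher and 6 lower, and at 24 h 3 were higher and 23 lower. The shares of all genes were 34.6% higher and 31.0% lower at 6 h, and 22.9% and 28.6% at 24 h. In this list 11 genes were transient and 7 opposite, against 4.81% and 2.02% of all genes.

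Transient and opposite members belonged to the same families. anxa1c, an annexin that binds membranes with calcium, had levels of -3.46, -3.45 and -4.21 and -0.10, 0.00 and -0.08 at 6 h and of 6.45, 6.56 and 6.61 and 6.55, 6.54 and 6.44 at 24 h. It did not overlap at 6 h and did at 24 h, and its difference was -3.68 (SE 0.24, adjusted p = 4.59e-06), with -1.68 at its other probe. anxa1d had effects of 3.19 and 0.03, whereas anxa1b was higher by 1.52 at 6 h and lower by 1.06 at 24 h. The ictacalcin genes icn and icn2, which encode small calcium-binding proteins, had 2.70 and 2.80 at 6 h and -0.43 and -0.44 at 24 h. Both were transient, but their falls at 24 h were called (adjusted p = 0.0164 and 0.00823).

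The keratin genes krt4 and krt5 were opposite on the probes that stand for them, and on 4 of 9 and 2 of 6 member probes. All their probes gave differences below 0, from -1.41 to -1.16 for krt4 and from -2.00 to -1.15 for krt5. krt4 was at 4.78, 4.92 and 4.50 and 5.38, 5.32 and 5.40 at 6 h and at 8.22, 8.32 and 8.39 and 7.39, 7.75 and 7.69 at 24 h, higher on every morpholino array first and lower on every one later. The effects were 0.63 and -0.70 for krt4 and 1.32 and -0.62 for krt5. pkp1b, a plakophilin of desmosomes, had 2.49 and -0.62. krt94 ran against the family, with -1.77 at 6 h and -0.41 at 24 h and a difference of 1.36 (adjusted p = 5.01e-05).

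Cytoskeletal, annexin and galectin genes overlapped with that list, and 27 of 50 were called lower and 3 higher, against 30.3% and 22.6% of all genes. Their median difference was -0.40 and stayed between -0.38 and -0.32 under the other scalings. The galectin genes lgals1l1 and lgals2a, neighbours in the annotation that encode sugar-binding proteins, were both transient. lgals1l1 was at -2.84, -3.58 and -3.29 in controls and 0.84, 0.67 and 0.62 with the morpholinos at 6 h, and at 0.63, 0.46 and 0.77 and 0.64, 0.86 and 0.76 at 24 h. Its difference was -3.81 (SE 0.23) and that of lgals2a -3.62 (SE 0.18).

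**Figure D4:**
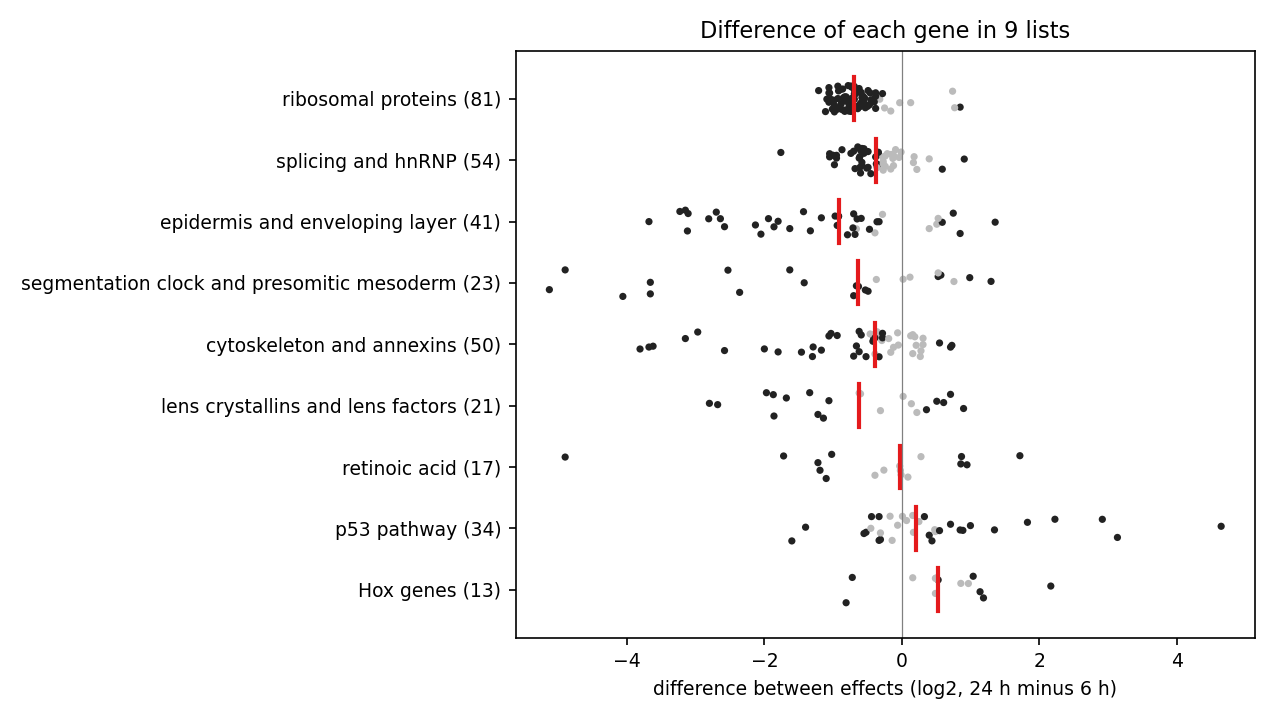
Difference between the effects (log2, 24 h minus 6 h) of each measured gene in 9 lists, black where called at an adjusted p under 0.05 and grey otherwise, with a red line at the median. Ribosomal proteins lie in a narrow band below 0, and p53 pathway genes reach furthest above it. Far below 0 lie her1 of the segmentation list (-5.13) and aldh1a2 of the segmentation and retinoic acid lists (-4.90).

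Laminins are trimers of basement membranes. Of the 5 laminin chain genes measured, 3 were opposite (lamb1a, lama5 and lama1). Laminins were no list of their own, and these 3 genes come from the collagen and matrix list. The count of 3 of 5 is therefore no test against all genes. In the collagen and matrix list 4 of 32 genes were opposite, against 2.02% of all genes. The differences of lamc1 (-0.25, adjusted p = 0.132) and lamb2l (0.42, adjusted p = 0.52) did not pass, and these 2 genes were named after their values were seen. lamb1a was at -4.98, -4.51 and -5.25 in controls and -2.62, -2.62 and -2.52 with the morpholinos at 6 h, and at 0.17, 0.37 and 0.22 and -0.68, -0.61 and -0.45 at 24 h. Every morpholino array was above every control array at 6 h and below every one at 24 h, with effects of 2.32 (SE 0.16) and -0.84 (SE 0.16) and a difference of -3.16 (adjusted p = 6.29e-06). lama5 had effects of 1.76 and -1.05, and lama1 2.04 and -0.62. serpinh1b, the chaperone of newly made collagen, was unequal: it was at -3.87, -4.60 and -3.88 and 0.83, 1.16 and -0.17 at 6 h, and at 3.33, 3.34 and 3.29 and 5.32, 5.45 and 5.21 at 24 h. It was higher on every morpholino array at both times, 26.4-fold and then 4.01-fold. Across the 32 collagen and matrix genes 10 were called lower and 5 higher, against 30.3% and 22.6% of all genes.

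Ribosomal protein genes moved together, most of them by less than 2-fold. Of 81 measured genes the difference was called lower for 73 and higher for 1, with 7 not called, against 30.3% lower and 22.6% higher among all genes. The median effect was 0.30 at 6 h, when 54 were higher and 5 lower, and -0.40 at 24 h, when 1 was higher and 74 lower. The shares of all genes were 34.6% higher and 31.0% lower at 6 h, and 22.9% and 28.6% at 24 h. In this list 9 differences reached 2-fold, all of them lower, against 7.05% of all genes. The median difference of -0.69 depended on the scaling, with -0.35 after quantile normalization and -0.40 in the authors' deposited table, and it was below 0 under each. rps15a had the largest: its levels were 4.02, 4.09 and 3.83 and 4.86, 4.75 and 4.85 at 6 h, and 7.63, 7.57 and 7.80 and 7.26, 7.35 and 7.28 at 24 h. The groups did not overlap at either time, and the effect went from 0.84 to -0.37 (difference -1.21, SE 0.12, adjusted p = 4.66e-05). rpl35a and rplp2 had differences of -1.11 and -1.09.

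Of 54 splicing genes 39 were higher at 6 h (34.6% of all genes), and at 24 h 14 were higher and 14 lower, near the 22.9% and 28.6% of all genes. Their difference was called lower for 32 and higher for 2, against 30.3% and 22.6% of all genes. The median was -0.37 (-0.37 to -0.27 under the other scalings). hnrnpa1b, an RNA-binding protein that regulates splicing, was opposite, higher by 0.82 and then lower by 0.95, although its other probe gave a difference of -0.69 against -1.76. The spliceosome subunit gene snrpd1 was opposite on smaller effects (0.53 and -0.52), and hnrnph1 was transient (1.12 and 0.07). The other probe of hnrnph1 gave a difference of -0.60 against -1.05.

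Histone and chromatin genes were called lower for 16 of 28 and higher for 6, against 30.3% and 22.6% of all genes. hmgn2, a nucleosome-binding protein, was opposite, with 1.08 and -0.74. The reverse held for the histone variant h2ax, which marks DNA breaks when phosphorylated: 2.70, 2.71 and 2.48 in controls and 0.73, 0.66 and 1.01 with the morpholinos at 6 h, then 1.96, 1.95 and 2.05 and 2.40, 2.73 and 2.73 at 24 h. It was below every control array at 6 h and above every one at 24 h, a difference of 2.47 (SE 0.17, adjusted p = 5.12e-06). The linker histone gene h1-10 had -0.58 and 0.70.

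**Figure D5:**
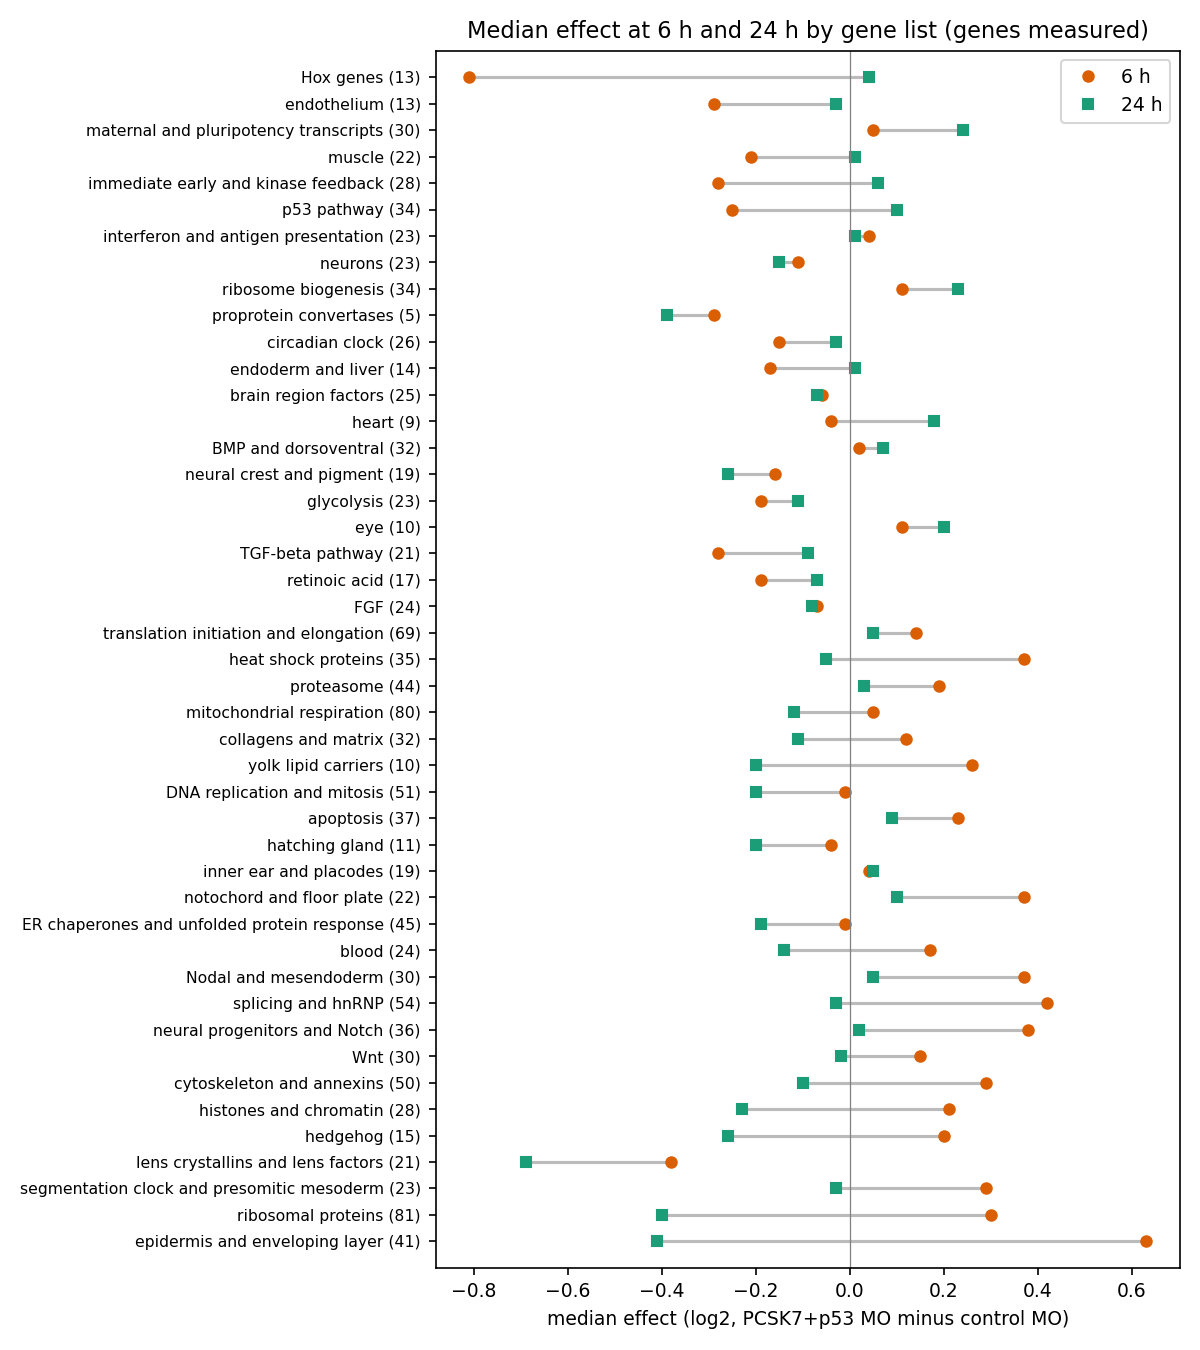
Median effect (log2, morpholino minus control) at 6 h (orange circles) and 24 h (green squares) over the measured genes of each of 45 lists, with the number of genes in brackets, ordered by the median difference. The epidermis and ribosomal protein lists cross from above to below 0, and the Hox list moves from below 0 to near 0.

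Among genes that were transiently lower, isg15 had the largest difference. It encodes a ubiquitin-like protein that interferon induces, and the lists placed it with both the interferon and the p53 genes. Its levels at 6 h were 1.83, 1.95 and 2.57 in controls and -1.61, -3.27 and -1.73 with the morpholinos, and at 24 h -2.40, -2.56 and -2.83 and -2.00, -2.57 and -2.22. The controls were high at 6 h alone, and the groups overlapped at 24 h. isg15 was 19.9-fold lower at 6 h and its difference was 4.65 (SE 0.55, adjusted p = 0.000127).

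The p53 pathway, which the second morpholino targets, held several more such genes. Of 34 measured genes 14 were called higher and 8 lower in the difference, 7 and 2 of them with at least 2-fold, and 6 were transient. The shares of all genes were 22.6% higher and 30.3% lower, 4.08% and 7.05% with at least 2-fold, and 4.81% transient. At 6 h 18 of the 34 were lower and 11 higher, against 31.0% and 34.6% of all genes, and at 24 h 7 were lower and 7 higher, against 28.6% and 22.9%. gadd45aa, a growth arrest gene that p53 induces, was at -0.70, -0.52 and -0.05 in controls and -2.67, -3.30 and -2.58 with the morpholinos at 6 h, and at -0.52, -0.71 and -0.49 and -0.04, -0.06 and -0.12 at 24 h. The groups were apart at both times, below the controls first and above them later, with effects of -2.42 and 0.50, the second not called (adjusted p = 0.0674).

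Effects of the other p53 genes at 6 h lay on both sides of 0. phlda3, an inhibitor of Akt that p53 induces, had -2.63 at 6 h and 0.52 at 24 h (difference 3.14, adjusted p = 0.000288). The cell death gene bbc3 (Puma) had -2.16 and 0.07. mdm2, the ligase that p53 induces and that degrades it, had -0.42 and 0.47, both called. Its relative mdm4 and the desmosome gene perp ran the other way, with 1.36 and 1.20 at 6 h and -0.24 and -0.20 at 24 h. The other probe of mdm4 gave a difference of -0.67 against -1.60, and the probes of perp gave -1.40 to -0.83. Among 37 apoptosis genes 13 were called lower and 5 higher, against 30.3% and 22.6% of all genes. The largest differences were in bbc3 and, in the opposite direction, bik, a BH3-only death gene with 1.94 at 6 h and -0.72 at 24 h. The caspase gene casp6a had 1.14 and 0.12, a difference that was not called with normexp (-0.22, adjusted p = 0.166).

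cebpz, a nucleolar CCAAT-binding protein, was also transiently lower: it was at 1.44, 1.53 and 1.32 and -2.46, -2.75 and -2.36 at 6 h, and at 1.77, 1.67 and 1.90 and 0.89, 1.68 and 2.07 at 24 h, but its 3 probes gave differences from 0.66 to 3.73, and 1.69 when they were averaged. pla2g12b, a phospholipase-like gene of lipoprotein secretion, had -3.30, -0.71 and -0.42 with the morpholinos at 6 h against 2.20, 2.15 and 2.14 in controls, so 1 array stood well below the others, and its difference was 3.27 (SE 0.82, adjusted p = 0.00872). rpz5 and ms4a17a.9 had differences of 3.25 and 3.04. The immediate early gene fosab was lower by 2.21 at 6 h, with 0.30 at 24 h and 3 probes between 2.44 and 2.57. Of 28 immediate early and kinase feedback genes 9 were called higher and 4 lower, against 22.6% and 30.3% of all genes. Among them were klf2a with 1.28 and klf4 with -2.25.

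Immune genes divided between the classes. The proteasome subunit gene psmb10, whose mammalian counterpart encodes a catalytic subunit of the immunoproteasome, led the late class: -0.37, -0.28 and -0.36 and -0.09, -0.22 and -0.13 at 6 h, 0.51, 0.86 and 1.25 and -1.46, -1.96 and -2.16 at 24 h. The groups were close at 6 h (0.19, adjusted p = 0.42) and apart at 24 h, when psmb10 was 6.66-fold lower, and all 3 probes gave differences between -2.93 and -2.75. The related psmb12 was opposite, at -0.28, -0.70 and -0.53 and -1.73, -1.40 and -1.61 at 6 h, and at -2.45, -2.51 and -2.47 and -1.11, -1.39 and -2.10 at 24 h, lower first and higher later. psmb9a was higher at both times (0.60 and 1.31), and its difference of 0.71 barely passed (adjusted p = 0.0471), and did not pass without the dim-probe filter, with replicate number as a block or with array weights (adjusted p = 0.0591, 0.0658 and 0.0513), nor without most of the single arrays. Among 44 proteasome genes 16 were called lower and 2 higher, against 30.3% and 22.6% of all genes. psmd4b, a receptor for ubiquitin chains, had 1.00 and 0.10.

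In the 23 interferon and antigen presentation genes 8 were called higher and 8 lower, against 22.6% and 30.3% of all genes. stat1a, the transcription factor of interferon signalling, was opposite (1.1 and -0.67). b2m and b2ml encode forms of the light chain of class I molecules. b2m was lasting (1.59 and 1.06), whereas b2ml was transient (1.94 and 0.20, difference -1.74, adjusted p = 1.82e-06).

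Late genes were few and mostly of different kinds. rsrp1 was at 3.40, 3.50 and 3.08 and 3.54, 3.30 and 3.26 at 6 h, overlapping, and at 1.1, 1.18 and 1.16 and 3.86, 3.94 and 3.14 at 24 h, without overlap. It was 5.65-fold higher at 24 h, and its 3 probes gave differences of 1.98 to 2.49. The next were asb1, an ankyrin and SOCS box gene (1.92 at 24 h, difference 2.16), the chemokine gene ccl39.3 (1.68 and 1.99), and actn2b, the alpha-actinin of the muscle Z-disc (1.47 and 1.86). tmem144b and kptn followed with differences of 1.85 and 1.69, but the other probe of tmem144b gave 0.41. dnajb1b, a co-chaperone of Hsp70, was at -1.07, -1.13 and -1.09 in controls and 0.79, 0.79 and 0.74 with the morpholinos at 24 h, higher by 1.87 against 0.39 at 6 h.

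Among the late falls were crystallin genes. Crystallins are the structural proteins of the lens. crygm2d14 was at -5.84, -5.67 and -5.53 and -5.25, -6.00 and -6.19 at 6 h, and at 1.45, 1.1 and 0.86 and -2.62, -1.55 and -1.23 at 24 h. The groups overlapped at 6 h and were apart at 24 h, with effects of -0.13 and -2.93 (difference -2.80, SE 0.49, adjusted p = 0.00119). crygm2d3 was late too, with a difference of -2.68, whereas crygm2a and crygmxl2, with differences of -1.68 and -1.86, were called lower at both times. At 6 h the control and morpholino means were dim, -5.68 and -5.81 for crygm2d14 and -5.20 and -5.58 for crygm2d3. A fall at 6 h could have gone unseen at such levels, so the late class does not show that it was absent. The crygm genes may be similar copies whose probes read one another's transcripts, which was not tested, so they are not counted as separate evidence.

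crygn2, a gamma N crystallin gene, had effects of 0.33 and -1.64 and 2 probes that gave -2.36 and -1.97. The beta crystallin gene cryba1a ran the other way, with -1.53 at 6 h and -0.62 at 24 h, but its second probe gave a difference of -0.17 against 0.90. In the whole list of 21 genes 10 were called lower and 5 higher, and at 24 h 15 were lower and 2 higher. Among all genes 30.3% were called lower and 22.6% higher, and at 24 h 28.6% were lower and 22.9% higher.

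Outside the lens, slc25a4, the mitochondrial carrier of ADP and ATP, was lower at 24 h on every array: -1.34, -1.63 and -1.59 in controls and -4.25, -3.84 and -3.55 with the morpholinos, against -4.47, -4.35 and -4.64 and -4.50, -4.50 and -4.58 at 6 h. Its effect was -2.36 at 24 h and -0.04 at 6 h. tmem30b, a subunit of phospholipid flippases, had -2.36 at 24 h on a representative probe and 4 probes with differences from -3.39 to -2.60. spata6l was lower by 2.39 at 24 h.

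The opposite class was led by agxt2, a mitochondrial aminotransferase. It was at -5.30, -5.24 and -5.29 in controls and -1.95, -2.21 and -2.65 with the morpholinos at 6 h, and at -0.02, 0.14 and -0.02 and -0.80, -0.94 and -1.06 at 24 h. Every morpholino array was higher at 6 h and lower at 24 h, with effects of 3.01 and -0.96 and a difference of -3.97 (SE 0.21, adjusted p = 1.64e-06). The controls of agxt2 at 6 h were dim. With normexp the opposite class fell from 204 to 88 genes, so sizes and ranks of its dim members are less certain. dnase1l1, a DNase I relative, pnx, a homeobox gene of the posterior nervous system, and drc12, a regulator of ciliary dynein, had differences of -3.05, -3.10 and -2.85.

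The reverse order, lower and then higher, held for 67 genes. Among them cyp1a, a cytochrome P450 that the aryl hydrocarbon receptor induces, was at -3.62, -3.73 and -3.90 and -5.38, -4.87 and -4.86 at 6 h, and at -0.27, -0.03 and -0.02 and 1.02, 1.18 and 1.13 at 24 h. The groups did not overlap at either time, with effects of -1.29 and 1.21. Its relative cyp1b1 had -1.83 and 0.62. pth1a, a parathyroid hormone gene, had effects of -1.39 and 1.25 and a difference of 2.65 (SE 0.26). snai3, a snail family repressor, and ca15b, a carbonic anhydrase of the germ line, had 2.34 and 2.22.

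Maternal and pluripotency transcripts were called higher for 12 of 30 and lower for 5, against 22.6% and 30.3% of all genes. npm2b, a nucleoplasmin that the egg supplies, was unequal: 2.73, 2.73 and 2.75 and 3.91, 4.03 and 4.03 at 6 h, and -3.77, -3.85 and -3.87 and 0.09, -0.34 and -0.41 at 24 h. It fell between the times in both groups and was higher with the morpholinos at both, by 1.25 and 3.61, the largest effect of any gene at 24 h. piwil1, an Argonaute protein of the germ line, went the other way, higher by 0.69 and then lower by 1.57.

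Lasting effects were mostly falls and included photoreceptor genes. pde6hb, the inhibitory subunit of a photoreceptor phosphodiesterase, was at 4.15, 4.08 and 3.98 and 1.48, 1.85 and 2.10 at 6 h, and at 1.87, 1.78 and 2.27 and -0.57, 0.29 and 0.01 at 24 h. The morpholino arrays were lower at both times without overlap, by 2.26 and 2.07, and the difference was 0.19 with a 95% interval of -0.51 to 0.90. capn3a, a calpain protease, was lower by 2.11 and 2.04, lgalsla, a galectin-like gene, by 2.09 and 1.83, and opn1sw1, an ultraviolet cone opsin, by 1.78 and 2.14. Rhodopsin, rho, was lower at both times too, but by 2.55 and 1.19, a called difference (1.36, adjusted p = 0.00481). The other probe of rho gave a difference of 0.37. The chromatin gene hmga1b and paqr3b had effects of -1.81 and -2.26 at 6 h and -1.71 and -1.70 at 24 h, and the probes of hmga1b gave differences from 0.10 to 1.48. These effects contain any shift between slides, sessions or software versions.

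Lasting rises were fewer, and among the largest were fdx1b, a ferredoxin of steroid synthesis, and tnfb, a tumour necrosis factor gene. fdx1b was at -4.71, -5.15 and -5.23 and -3.15, -2.68 and -2.82 at 6 h, and at -5.17, -5.10 and -4.74 and -3.36, -3.31 and -3.97 at 24 h, without overlap at either time. tnfb was higher by 1.42 and 1.63, the interferon-inducible ifi27.1 by 1.79 and 1.41, afmid, an enzyme of tryptophan breakdown, by 1.43 and 1.62. cyb5d1 and znf1015 had 1.70 and 1.29 at 6 h and 1.30 and 1.28 at 24 h. Of unequal genes, mala.1 was higher by 1.63 and then 3.13, and scrn3 by 3.23 and then 1.31. ms4a17a.2 and rab3db were lower by 2.78 and 2.42 at 6 h, and by 1.11 and 1.04 at 24 h.

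Tissue lists with fewer measured genes held both directions, against 30.3% called lower and 22.6% higher among all genes. In blood, 11 of 24 genes were called lower and 4 higher: cahz, a carbonic anhydrase of red cells, had 2.65 and -0.09, and lmo2, a factor of blood and vessel precursors, 1.31 and 0.07. With normexp the difference of lmo2 was not called (-0.20, adjusted p = 0.33). klf4 had 1.49 and -0.76. Endothelial genes were called higher for 8 of 13 and lower for 3. The receptor genes aplnrb, flt4 and tek were lower at 6 h by 1.36, 1.23 and 1.12. Their effects at 24 h were 0.12, -0.17 and -0.05. The other probe of tek gave a difference of 0.27 against 1.07. The median difference of that list was 0.43, and 0.44 to 0.50 under the other scalings.

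In muscle, 6 of 22 genes were called higher and 6 lower, near the 22.6% and 30.3% of all genes. desma, the muscle intermediate filament desmin, was at -2.46, -2.42 and -2.39 and -3.89, -4.33 and -4.23 at 6 h, and at 6.19, 5.81 and 6.13 and 6.08, 6.09 and 6.11 at 24 h. It was below every control array at 6 h and overlapped at 24 h, a difference of 1.78 (SE 0.17, adjusted p = 3.7e-05). The somite factor meox1 had 1.02 and the myosin light chain mylz3 -0.82.

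Of 19 neural crest and pigment genes 9 were called lower and 5 higher, against 30.3% and 22.6% of all genes. pmela, which builds the fibrils of melanosomes, had 0.90 and -1.01, pnp4a, an enzyme of iridophore purine synthesis, 0.60 and -0.72, and tyr, the tyrosinase that makes melanin, -0.43 and -1.29. With normexp the difference of tyr was not called (-0.24, adjusted p = 0.188). Yolk lipid carriers were called lower for 3 of 10 and higher for 3. apoa1a had 2.56 and -0.40, with normexp a difference of -1.05 in place of -2.96, and apobb.1 a difference of 1.1.

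Circadian genes were called higher for 11 of 26 and lower for 8, against 22.6% and 30.3% of all genes. aanat2, the enzyme of melatonin synthesis in the pineal gland, was late: -0.37, -0.33 and -0.21 in controls and -1.13, -1.22 and -1.68 with the morpholinos at 24 h, against -3.66, -3.95 and -4.11 and -3.38, -3.57 and -3.73 at 6 h. per2, a repressor of the clock that light induces, was late in the other direction (-0.18 and 1.03), and bmal1b, an activator of the clock, was opposite (-0.54 and 0.59). The other probe of per2 gave a difference of 0.67 against 1.21. Among 23 glycolysis genes 7 were called lower and 5 higher, with differences of -1.71 for the hexokinase hk1, -1.32 for pgam1a and 1.15 for pgam2, the mutase of muscle.

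The remaining tissue and growth lists divided without a large median, against 30.3% called lower and 22.6% higher among all genes. Called lower and higher were 27 and 11 of 80 genes of mitochondrial respiration, 26 and 8 of 69 of translation initiation and elongation, and 20 and 10 of 51 of DNA replication and mitosis. Ribosome biogenesis had 10 higher and 7 lower of 34. All 10 measured eye genes had called differences, 5 in each direction, and of 25 brain region factors 9 were higher and 11 lower. Neuron genes were higher for 9 and lower for 8 of 23. Placode, notochord, heart, liver and hatching gland lists had 5 and 5 of 19, 2 and 8 of 22, 1 and 3 of 9, 2 and 4 of 14, and 1 and 3 of 11 higher and lower.

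Of 45 chaperone and unfolded protein response genes of the endoplasmic reticulum 24 were called lower and 5 higher, against 30.3% and 22.6% of all genes, with a median of -0.32 (-0.30 to -0.13 under the other scalings). sdf2l1, a chaperone cofactor, had 0.72 and -0.46. The stress factor atf4a and the oxidase ero1b ran the other way, with -0.91 and -0.95 at 6 h and 0.49 and 0.19 at 24 h, and the second probe of atf4a gave a difference of 0.22. Of 35 heat shock protein genes 14 were called lower and 5 higher, and their median of -0.14 was 0.01 after quantile normalization and 0.04 in the deposited table. hspb1, a small heat shock protein, was opposite (0.68 and -0.73). hsp70l, a heat-inducible Hsp70, was at -4.65, -2.16 and -4.88 in controls at 6 h, so scattered that its effects of 1.20 and 1.46 did not pass (adjusted p = 0.152 and 0.104), and the 95% interval of its difference was -1.87 to 2.39. Without the control array that stood apart at 6 h, replicate 2, the difference was -0.61 in place of 0.26.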

How the data were processed

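The deposited scanner files hold, per the file headers, intensity values from Agilent Feature Extraction: the processed signal is background-subtracted and detrended within an array, with no scaling between arrays. The submitters' processing notes name version 10.7.1. The headers give version 10.7.1.1 for all control arrays and 10.7.3.1 for all arrays with the PCSK7 and p53 morpholinos. The authors' deposited value table, also intensity, holds 19838 probes normalized by a method not given in the sources used here, and served as an alternative only.

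Control spots and flagged spots were left out, spots of a probe were averaged, and log2 of the processed signal was centred on each array's 75th percentile. limma 3.58.1 in R 4.3.3 (lmFit, eBayes) fitted 1 mean per group to 36684 probes, those rated above background on every array of at least 1 group, with 8 residual degrees of freedom, a prior of 2.08 and a median residual SD of 0.14. Tests were two-sided, with Benjamini-Hochberg adjustment over all fitted probes. The number of arrays limits the precision. No member probe was saturated (0 probes), and 0 columns lacked a sample. The script was also tested on data simulated from the group means and residual SDs of these arrays.

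A gene is its member probe with the highest mean signal. Probes of a gene disagreed in the sign of the difference for 47 of the 1124 genes called with at least 2-fold, and 573 of these rest on 1 probe. Gene symbols are those that RefSeq's zebrafish table (GRCz12tu) gives for a probe's RefSeq accession. That table was also used for neighbouring genes and for no coordinates. Probes without a single matching symbol carry no name, and 26854 of 43603 were named. The classes, lists and members were chosen with earlier results of these data known. Named were, among genes with a plain symbol and probes of one sign, the 6 per direction with the largest difference in the transient, late and opposite classes, the 6 lasting genes per direction with the largest smaller effect, the 4 unequal genes per direction, up to 3 per described list, genes compared for their role, and the gene of the title. One gene that the rule names is not reported here. Genes just inside or outside a limit were named after their values were seen.

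Alternatives were quantile, cyclic loess and median scaling, normexp (offset 50), the deposited table, other probe filters, the mean of a gene's probes, slide and replicate blocks, array weights, and leaving out each array.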

Additional observations from a re-analysis of the deposited data

Results flagged for a closer look

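The difference between the effects at 24 h and 6 h is itself a test of whether the 2 times differ, and it was called for 13189 of 26468 member probes. Every named member gene with a called difference is therefore given here, in log2 as the effect at 24 h minus the effect at 6 h, and no cause was weighed. Slide cannot be told apart from time within the morpholino arrays.

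Transient genes that were higher at 6 h had differences between -5.13 and -1.02. her1 had -5.13, aldh1a2 -4.90, kctd12b -4.71, sox2 -4.43, mespaa -4.06, and lgals1l1 -3.81. anxa1c was at -3.68, her7 -3.66, tbx16l -3.66, lgals2a -3.62, sp5l -3.62, and icn2 -3.23. anxa1d gave -3.15, icn -3.12, dlb -3.09, apoa1a -2.96, cahz -2.74, and her3 -2.57. msgn1 showed -2.36, fzd10 -2.20, msx1a -2.18, msx1b -1.95, b2ml -1.74, and rdh10a -1.72. mdm4 measured -1.60, scube2 -1.58, bmp4 -1.50, hhip -1.43, perp -1.40, and fgf24 -1.26. lmo2 had -1.25, raraa -1.19, hnrnph1 -1.05, and casp6a -1.02.

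Of the genes transiently lower at 6 h, the values ran from 1.06 to 4.65. isg15 had 4.65, cebpz 3.73, pla2g12b 3.27, rpz5 3.25, ms4a17a.9 3.04, and gadd45aa 2.92. fosab was at 2.51, bbc3 2.23, hoxb8a 2.17, dlx3b 1.94, foxi1 1.89, and desma 1.78. cyp26c1 gave 1.72, aplnrb 1.48, krt94 1.36, tek 1.07, and flt4 1.06.

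Late genes that were lower at 24 h ranged from -2.93 to -1.21. psmb10 had -2.93, crygm2d14 -2.80, crygm2d3 -2.68, tmem30b -2.60, slc25a4 -2.32, and spata6l -2.13. crygn2 was at -1.97, aanat2 -1.39, and gli3 -1.21.

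Late genes that were higher ranged from 1.21 to 2.45. rsrp1 had 2.45, asb1 2.16, ccl39.3 1.99, actn2b 1.86, tmem144b 1.85, and kptn 1.69. dnajb1b was at 1.48 and per2 1.21.

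Higher at 6 h and lower at 24 h were genes with values from -3.97 to -1.05. agxt2 had -3.97, lamb1a -3.16, pkp1b -3.11, pnx -3.10, dnase1l1 -3.05, and drc12 -2.85. lama5 was at -2.81, bik -2.66, lama1 -2.66, anxa1b -2.58, piwil1 -2.27, and klf4 -2.25. krt5 gave -1.94, sp5a -1.93, pmela -1.92, hmgn2 -1.82, stat1a -1.78, and hnrnpa1b -1.76. hspb1 showed -1.41, krt4 -1.33, pnp4a -1.33, rpl35a -1.11, rplp2 -1.09, and snrpd1 -1.05.

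The reverse, lower and then higher, gave 1.13 to 2.65. pth1a had 2.65, cyp1a 2.50, h2ax 2.47, cyp1b1 2.45, snai3 2.34, and ca15b 2.22. psmb12 was at 2.02, h1-10 1.27, and bmal1b 1.13.

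Effects of the same direction but unequal size gave -2.72 to 2.36. serpinh1b had -2.72, npm2b 2.36, scrn3 -1.92, crygmxl2 -1.86, ms4a17a.2 1.67, and mala.1 1.51. rab3db was at 1.38 and rho 1.36.

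The other named genes, in the lasting class or in none, spanned -3.36 to 3.14. eve1 had -3.36, phlda3 3.14, hk1 -1.71, crygm2a -1.68, tbxta -1.60, and atf4a 1.40. pgam1a was at -1.32, her11 1.30, klf2a 1.28, rps15a -1.21, hoxd13a 1.19, and sdf2l1 -1.18. pgam2 gave 1.15, hoxd12a 1.14, ero1b 1.13, apobb.1 1.1, meox1 1.02, and lfng 0.99. acta2 showed -0.98, ccn2a 0.98, cyp26b1 0.95, spry1 -0.91, cryba1a 0.90, and psmd4b -0.90. mdm2 measured 0.89, fn1a 0.87, tyr -0.85, mylz3 -0.82, fgf17 0.79, and psmb9a 0.71. pcsk5b had 0.59 and b2m -0.53.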

How the results depend on the processing

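Among 156 named genes, 1678 of 1706 differences under settings other than leaving out an array kept their direction and their side of the threshold, and 1848 of 1872 did when 1 array was left out. The background correction chosen after seeing the data, normexp with a capped local background, moved the counts most: at least 2-fold calls went from 412 higher and 712 lower to 218 and 356, transient genes from 486 to 229, late from 89 to 45, lasting from 133 to 86 and opposite from 204 to 88, of which 212, 37, 81 and 81 were in the same class before. It compresses dim signals by construction, so dim members carry less certain sizes. From the authors' deposited table, which holds fewer probes, 7232 probes were called, against 6612 of those probes by the scanner signal. The deposited values were fitted and adjusted over their 12701 member probes alone, whereas the scanner fit took in 36684 probes. Restricting the scanner fit to member probes changed its count from 13189 to 14128, so these counts do not compare the scalings alone.

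With 1 array left out, called probes ranged from 11939 to 12815, higher genes from 405 to 434, lower from 688 to 748, transient from 467 to 514, late from 83 to 96, lasting from 114 to 141 and opposite from 185 to 218. The replicate numbers did not pair the samples (correlations of same-numbered arrays -0.15 to 0.04), and a replicate block gave 12265 called probes. A random slide block gave 13903.

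Some differences turned sign. capn3a was at -0.01 after quantile normalization and -0.13 in the deposited table. znf1015 was at 0.27 after quantile normalization, 0.01 with the array median, 0.31 in the deposited table, 0.12 as the mean of probes and 0.03 with array weights. With normexp acta2 was at 0.11, fdx1b at 0.03, paqr3b at -0.04, tnfb at -0.16 and cyb5d1 at 0.79 (limma adjusted p = 0.000305), and cyb5d1 was at 0.04 in the deposited table. Leaving out 1 array gave -0.11 to 0.10 for znf1015, -0.61 to 0.76 for hsp70l, -0.02 to 0.32 for afmid, -0.12 to 0.31 for capn3a and -0.04 to 0.27 for hmga1b. Calls also changed for differences of b2m (-0.28 in the deposited table, adjusted p = 0.0921), lgalsla (0.84 after quantile normalization and 0.78 in the deposited table, called), hmga1b (0.57 to 0.69 under 3 settings, called) and fdx1b (-0.85 without 1 control array at 6 h, called). The cause was not tested. Uncapped normexp was not run, since it could not be fitted.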
